A study of Capra hircus and Bos taurus with 7 samples.

Results

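The miR-200 family of microRNAs (miRNAs) was followed in extracellular vesicles, the membrane-bound particles that cells release, isolated from reconstituted milk powders. Its members were taken by name from the deposited tables: bta-miR-200a, bta-miR-200b, bta-miR-200c, bta-miR-141 and bta-miR-429, called here without the bovine prefix. All 5 were present, each as 1 row with no arm named, among 364 mature miRNAs that carry bovine names in every library. The 7 small RNA libraries comprised 1 from a commercial bovine milk powder, 3 from skimmed goat milk powder (A to C) and 3 from whole goat milk powder (A to C). All were made in the same way, from powder dissolved in warm water and vesicles separated by size exclusion chromatography; breed, lot and animals are not named in the labels. What the letters A to C stand for, packs, lots or repeated isolations, is not stated in the labels, so p-values below rest on a spread between libraries that may be purely technical. Nor do the labels say that the skimmed and whole powders came from the same milk, so fat removal and any other way in which the powders differ cannot be told apart.

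The miR-200 family is known as a marker of epithelial cells, where it represses the transcription factors ZEB1 and ZEB2 and thereby keeps the adhesion protein E-cadherin expressed. Milk is secreted by an epithelium, and milk fat globules and many milk vesicles derive from its cells. The family is transcribed from a pair of gene clusters, miR-200b with miR-200a and miR-429 in the first and miR-200c with miR-141 in the second. It is also divided by the seed, the short stretch near the 5′ end of a miRNA that pairs with its targets: miR-200b, miR-200c and miR-429 share a seed, and miR-200a and miR-141 share another that differs from it by a base. The clusters and the seed groups therefore cut across each other, and each cluster holds both seeds. In the goat gene annotation ARS1.2, MIR141 and MIR200C stood next to each other, as did MIR429, MIR200A and MIR200B, with no other annotated gene between them. Positions are not printed, because the sources used here do not give the genome build of the deposited counts, and the mature sequences are not shown.

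The family made up between 7.45% and 9.48% of the miRNA reads of each library. It took 9.48% of all miRNA reads in the bovine library. In goat powder it took 7.68%, 8.34% and 7.67% of the reads of skimmed libraries A, B and C and 7.45%, 7.73% and 7.74% of those of whole libraries A, B and C. The ranges of the goat powders overlapped, and the bovine share lay above all 6 goat shares. Library totals ran from 5675489 reads in the bovine library to 11963849 in whole library C, so that every family value below rests on at least 2716 reads. Exact 95% Poisson intervals for a value are accordingly narrow and cover counting error only. Fewer vesicles from epithelial cells and less of a miRNA per vesicle cannot be told apart in such libraries.

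Within the family the order of read levels was the same in all 7 libraries: miR-200c, miR-200b, miR-200a, miR-141 and miR-429. Ranks below are places among the 364 miRNAs, and levels are counts-per-million of all miRNA reads (CPM). In the goat libraries miR-200c stood at rank 7 to 10, miR-200b at 11 or 12, miR-200a at 26 to 33, miR-141 at 49 to 62 and miR-429 at 68 to 75. Neighbours in this order did not overlap within a powder. The closest were miR-200c and miR-200b, where the lowest whole-milk value of miR-200c was 33936 CPM and the highest whole-milk value of miR-200b was 32885 CPM. Of the 35 family values, 29 were not whole numbers (within 0.001), so some reads had been divided between rows. The members are close relatives in sequence, and the sources used here do not say how a read that matches more than 1 of them was split. Read levels of different miRNAs also depend on how well each is captured during library preparation.

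The comparison of skimmed with whole goat powder is described first. In edgeR's quasi-likelihood test, with p-values adjusted by Benjamini-Hochberg across the 209 miRNAs tested, 0 of the 5 members passed an adjusted p of 0.05, against 0.478% of all miRNAs tested. At an unadjusted p under 0.05 there were 2 members, miR-141 and miR-200c, against 10.5% of all tested. For 3 members the CPM ranges of the powders were separate, against 20.1% of all tested. Of these 1 was higher in skimmed powder, against 9.57% of all tested, and 2 were lower, against 10.5%. The median log2 fold change of the 5 members was -0.09, beside 0.03 over all 209 miRNAs.

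The first cluster to be described holds miR-200c and miR-141. As the leading member, bta-miR-200c had 39944, 44203 and 37156 CPM in skimmed libraries A, B and C, against 33936, 34984 and 34089 CPM in whole libraries A, B and C. Every skimmed library was above every whole library, and the whole libraries differed little among themselves. The means were 40434 ± 3549 CPM in skimmed powder and 34336 ± 566 CPM in whole powder (SD, n = 3 each), a log2 fold change of 0.33 ± 0.12 (SE) with an edgeR adjusted p of 0.26.

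Its cluster partner bta-miR-141 stood the other way. It had 1198, 1658 and 1771 CPM in skimmed libraries A, B and C, against 2328, 2330 and 2501 CPM in whole libraries A, B and C. The powders did not overlap, and skimmed A had the lowest value. The means were 1542 ± 304 CPM in skimmed powder and 2386 ± 99.2 CPM in whole powder (SD, n = 3 each). The log2 fold change was -0.55 ± 0.15 (SE), with an edgeR adjusted p of 0.12. Neither member of this cluster therefore passed the threshold, and their estimates had opposite signs.

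DESeq2's Wald test on the same 209 miRNAs called both, with miR-200c higher (adjusted p = 0.034) and miR-141 lower (adjusted p = 0.048) in skimmed powder. It gave an adjusted p to 71 miRNAs, miR-429 not among them, and called 18.3% of them, 11.3% higher and 7.04% lower. Without that tool's own filter on low means, an alternative added after the values were seen, the adjusted p were 0.076 for miR-200c and 0.11 for miR-141, with 5.94% of 202 miRNAs called. Run on all miRNAs with a count, also added later, DESeq2 gave 0.079 for miR-200c and 0.069 for miR-141, with 9.05% of 243 miRNAs called. The test of limma-voom called 0 members, with an adjusted p of 0.13 for miR-200c and 0.14 for miR-141.

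In the other cluster bta-miR-200b was the most abundant member. It had 29901, 31000 and 30979 CPM in skimmed libraries A, B and C, against 29891, 32885 and 32692 CPM in whole libraries A, B and C. These ranges overlapped. The means were 30627 ± 628 CPM in skimmed powder and 31822 ± 1676 CPM in whole powder (SD, n = 3 each), and the log2 fold change was 0.04, with an edgeR 95% interval of -0.20 to 0.27 and an adjusted p of 0.96. The sign of this value turned under library totals (-0.06) and upper-quartile scaling (-0.11), so no direction is given for miR-200b.

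With the seed of miR-141 but in the cluster of miR-200b, bta-miR-200a had 4966, 5748 and 6074 CPM in skimmed libraries A, B and C, against 7614, 6329 and 7102 CPM in whole libraries A, B and C. The powders did not overlap, although skimmed C and whole B lay close together. The means were 5596 ± 569 CPM in skimmed powder and 7015 ± 647 CPM in whole powder (SD, n = 3 each). The log2 fold change was -0.24 ± 0.12 (SE), with an edgeR adjusted p of 0.52.

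The least abundant member, bta-miR-429, had 744, 795 and 695 CPM in skimmed libraries A, B and C, against 734, 751 and 1055 CPM in whole libraries A, B and C. The ranges overlapped, and the difference in means lay with whole C. The log2 fold change was -0.09 (95% interval -0.63 to 0.44, edgeR adjusted p = 0.96) and was 0.12 without whole C.

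**Figure D1:**
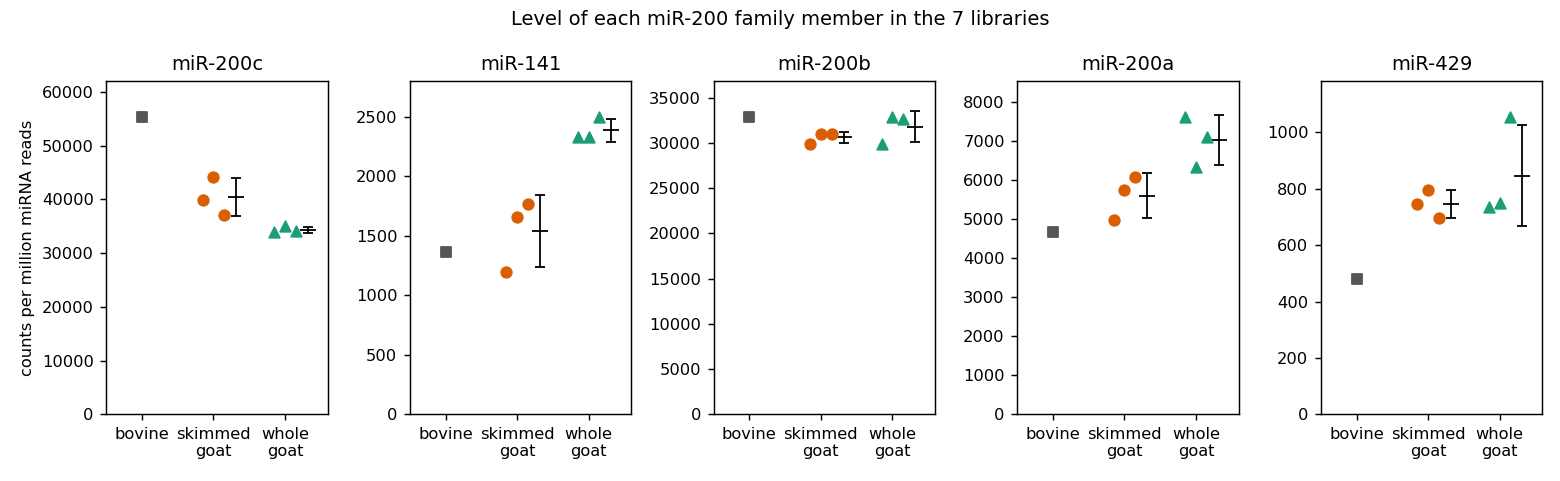
Level of each member in CPM (vertical axes from 0, a scale of its own in each panel) in the bovine library, the 3 skimmed goat libraries and the 3 whole goat libraries; bars give the mean and SD of each goat powder. For miR-200c the skimmed points lie above the whole points, for miR-141 and miR-200a below them, and for miR-200b and miR-429 they overlap.

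**Figure D2:**
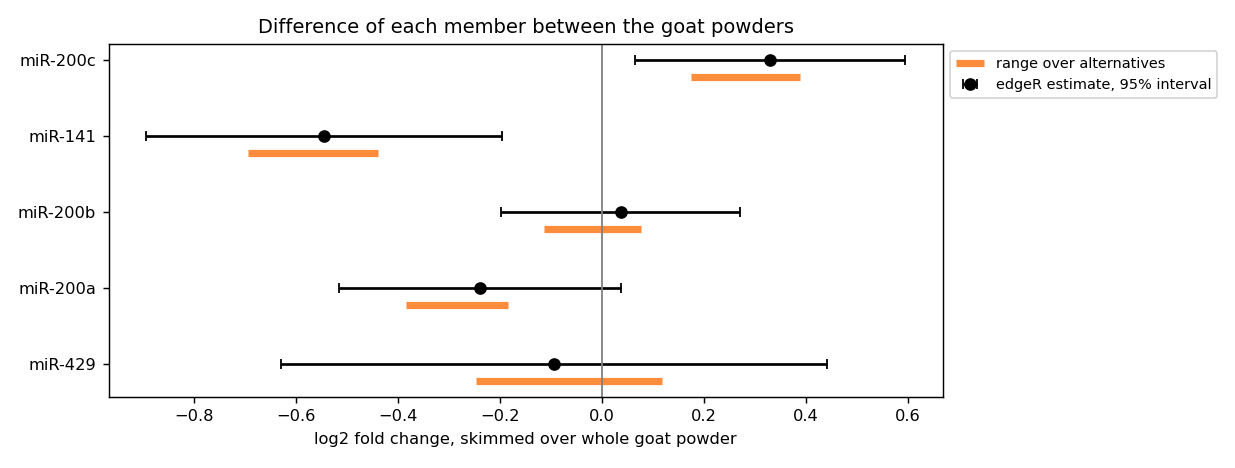
Log2 fold change of each member, skimmed over whole goat powder, with edgeR's 95% interval (points and bars) and the range of the estimate over 17 alternative settings (thick lines). The thick line of miR-200c lies above 0 and those of miR-141 and miR-200a below 0, while those of miR-200b and miR-429 cross it.

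The spread between libraries of the same powder differed between members. Among the 64 miRNAs with a goat mean of at least 1000 CPM, miR-200b had the lowest coefficient of variation (CV) in skimmed powder, at 2.05% against a median of 13.6%, and in whole powder it stood at 5.27%, place 16 of 64 from the lowest. For miR-200c the CV was 8.78% in skimmed powder, place 18, and 1.65% in whole powder, the lowest there against a median of 10.1%. For miR-141 the CV was 19.7% in skimmed powder, place 50, and 4.16% in whole powder, place 9. For miR-200a it was 10.2% in skimmed powder, place 23, and 9.22% in whole powder, place 29. Each CV rests on 3 libraries.

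Ratios between members of a library do not depend on how libraries are scaled to each other, and 5 were compared: the clusters, the seed groups and 3 pairs within a cluster. For 3 of the 5 the goat powders did not overlap, each with an exact two-sided permutation p of 0.1, the smallest that 3 libraries against 3 allow, and 0.17 after adjustment over the 5 ratios. This design cannot pass 0.05. Among all 2016 pairs of miRNAs with a goat mean of at least 1000 CPM, the log2 ratio of 33% did not overlap between the powders. That share is for pairs of single miRNAs, so it has no like for the cluster and seed ratios, which are of sums. Of the 10 pairs of members, which share 5 miRNAs, 6 did not overlap. The pairs with miR-429 do not belong to that background, as its goat mean of 796 CPM is below 1000 CPM.

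The clusters were nearly balanced in goat powder. Reads of miR-200c and miR-141 made up 53.6%, 55.0% and 50.8% of the family in skimmed libraries A, B and C, against 48.7%, 48.3% and 47.2% in whole libraries A, B and C. The log2 ratio of this cluster to the miR-200b, miR-200a and miR-429 cluster averaged 0.18 ± 0.12 in skimmed powder and -0.11 ± 0.04 in whole powder (SD, n = 3 each), a difference of 0.29. Because miR-200c and miR-200b hold most of the reads, this ratio is close to theirs. When each member's log2 count was given the same weight, the difference was -0.03 (exact permutation p = 0.6), so no direction is given for the clusters as such.

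The seed groups were compared in the same way. For each read with the seed of miR-200a and miR-141, reads with the seed of miR-200b, miR-200c and miR-429 numbered 11.5, 10.3 and 8.77 in skimmed libraries A, B and C, against 6.49, 7.92 and 7.06 in whole libraries A, B and C. The powders did not overlap. As a log2 ratio the means were 3.34 ± 0.19 in skimmed powder and 2.84 ± 0.14 in whole powder (SD, n = 3 each), a difference of 0.50, or 1.42-fold (exact permutation p = 0.1). It was 0.41 to 0.60 when each library was left out in turn. The seed of miR-200a and miR-141 thus took 9.05% ± 1.11 of family reads in skimmed powder and 12.3% ± 1.07 in whole powder (SD, n = 3 each).

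Within the clusters the pair of miR-141 and miR-200c stood farthest apart between the powders. The number of miR-141 reads per miR-200c read was 0.030, 0.038 and 0.048 in skimmed libraries A, B and C, against 0.069, 0.067 and 0.073 in whole libraries A, B and C. All skimmed values lay below all whole values. The log2 ratio averaged -4.73 ± 0.33 in skimmed powder and -3.85 ± 0.07 in whole powder (SD, n = 3 each), a difference of -0.88, or 1.84-fold (exact permutation p = 0.1). It ranged from -1.05 to -0.72 when each library was left out.

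The matching pair of the other cluster, miR-200a to miR-200b, had a difference of the same sign but overlapping powders. There were 0.166, 0.185 and 0.196 reads of miR-200a per miR-200b read in skimmed libraries A, B and C, against 0.255, 0.192 and 0.217 in whole libraries A, B and C. The log2 difference was -0.27 (exact permutation p = 0.2). For miR-429 to miR-200b, which share both cluster and seed, the log2 difference was -0.11 (exact permutation p = 0.7), and it was 0.04 without whole C.

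**Figure D3:**
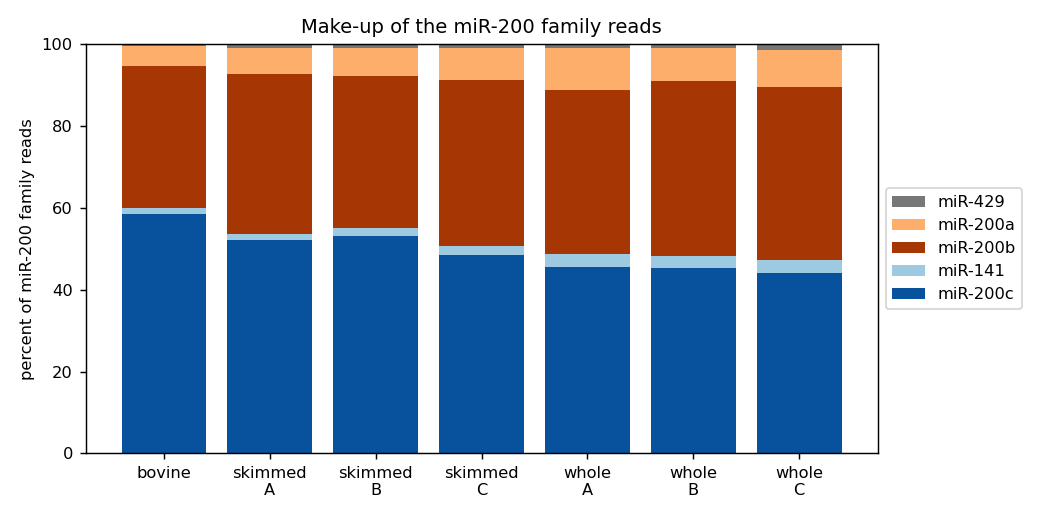
Share of each member in the reads of the family, in percent, in the bovine library, skimmed libraries A to C and whole libraries A to C. The miR-200c share is 58.4% in the bovine library, 48.5% to 53.0% in skimmed and 44.0% to 45.5% in whole libraries.

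**Figure D4:**
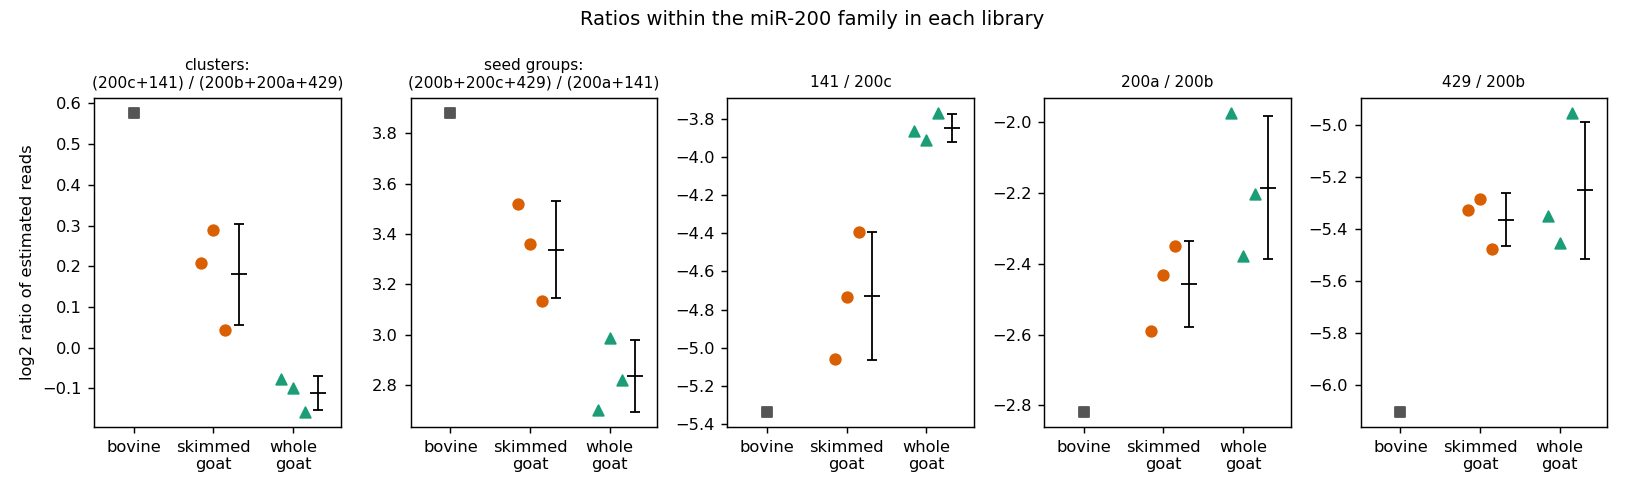
Log2 ratio of estimated reads within each library for the clusters, the seed groups and 3 pairs within a cluster, with the mean and SD of each goat powder (axes do not start at 0). In the first 3 panels the skimmed points lie between the bovine point and the whole points.

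How closely members moved together was described by the SD, over the 6 goat libraries, of the log2 ratio between 2 members; a low SD means that the ratio was steady. The steadiest pair was miR-200c with miR-200b (0.18), which share a seed but not a cluster; 9.57% of all pairs of miRNAs with a goat mean of at least 1000 CPM had a smaller SD. The least steady was miR-200c with miR-141 (0.53), which share a cluster but not a seed. Of the same set of all pairs, 85.3% had a smaller SD than this. The 4 pairs with a common seed had a median SD of 0.20 and a range of 0.18 to 0.29, against 0.36 and 0.21 to 0.53 for the 6 pairs with different seeds. The 4 pairs with a common cluster had a median of 0.23 and a range of 0.19 to 0.53, against 0.32 and 0.18 to 0.37 for the 6 pairs from different clusters. Over all 2016 pairs of miRNAs with a goat mean of at least 1000 CPM the median was 0.34. The spread between powders enters these SDs, the pairs share members, and miR-429 lies below that level, so these values are a description.

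**Figure D5:**
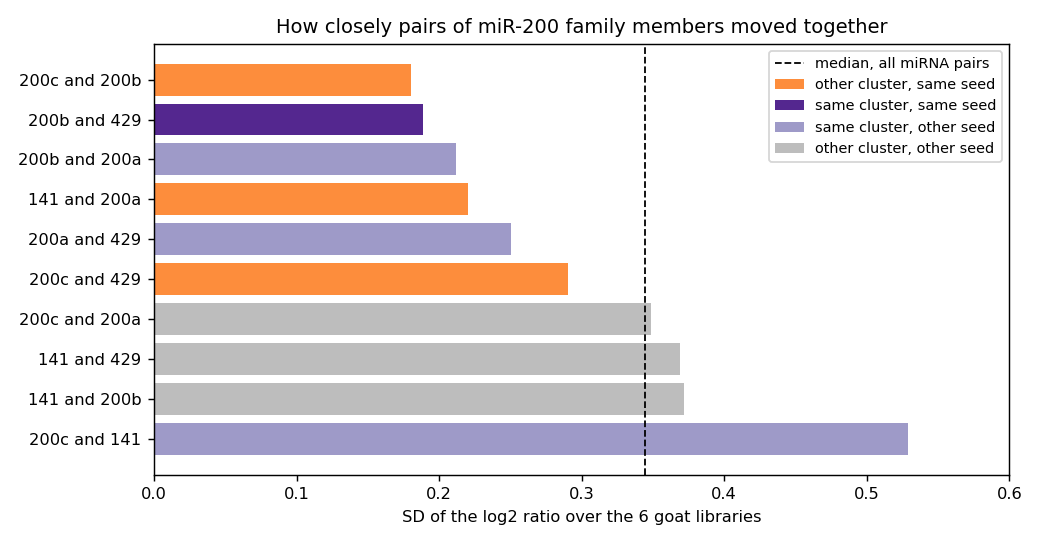
SD of the log2 ratio between 2 members over the 6 goat libraries, for all 10 pairs from the steadiest at the top, coloured by whether the pair shares its cluster and its seed; the dashed line is the median of all miRNA pairs with a goat mean of at least 1000 CPM. The 3 pairs that share neither lie just above the line, and the pair of miR-200c and miR-141 lies farthest out.

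Outside the family, the miRNAs with the steadiest ratio to a member over the 6 goat libraries were sought among 60 with a goat mean of at least 1000 CPM. For miR-200c they were miR-151-3p (SD of the log2 ratio 0.08), miR-375 (0.10) and miR-30d (0.12). For miR-141 they were miR-30a-5p (0.12), miR-30e-5p and miR-27a-3p (0.15 each), and for miR-200b miR-16b, miR-16a (0.10 each) and miR-186 (0.11). For miR-200a they were miR-26b (0.09), miR-21-5p (0.10) and miR-26a (0.11), and for miR-429 let-7g (0.16), miR-26c and miR-26a (0.17 each). These are the lowest values out of 60 for each member and are given as a description. The bovine library did not keep these ratios throughout: miR-375, a miRNA of secretory epithelia, stood at 11535 CPM in the bovine library and 27870 CPM in the mean of the goat libraries, while miR-200c was higher in the bovine library. Wider gaps between the bovine library and the goat mean were those of miR-16b (283 and 9589 CPM), miR-16a (458 and 9672 CPM) and miR-27a-3p (51.6 and 1204 CPM). Others stood close to the goat mean, such as miR-26b (8910 and 8683 CPM).

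The bovine library was set beside the goat libraries with no test, since there is 1 bovine library and species, product and library cannot be told apart. Its values lay outside the range of the 6 goat libraries for 4 of the 5 members, against 80.2% of the 126 miRNAs with a goat mean of at least 100 CPM. Of the 4, 2 lay above the range, against 24.6% of the 126, and 2 below it, against 55.6%. None of the 5 differed from the goat mean by 2-fold or more, against 56.3% of those 126. The median size of the log2 difference was 0.52 for the members and 1.30 for the 126 miRNAs.

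In the bovine library miR-200c stood at 55374 CPM (95% Poisson interval 55181 to 55568), against 33936 to 44203 CPM in the goat libraries, 1.48 times their mean. It was at rank 6 there. The level of miR-200b was 32904 CPM (32755 to 33053) in the bovine library, against 29891 to 32885 CPM in goat, which is above the goat range by less than the counting interval. For miR-200a it was 4660 CPM (4604 to 4716) in the bovine library, against 4966 to 7614 CPM in goat, and for miR-429 479 CPM (461 to 497) against 695 to 1055 CPM. Both were below every goat library. With 1368 CPM (1337 to 1398) in the bovine library, miR-141 lay inside the goat range of 1198 to 2501 CPM.

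The 10 pair ratios within the family share members, so they are not independent. In the bovine library 8 were farther from the whole-powder mean than the skimmed-powder mean was, and 2 were nearer. Distance was counted on either side of the whole-powder mean. Among the 8, miR-200a to miR-429 lay on the other side from skimmed powder. Its log2 ratio was 3.28 in the bovine library, against means of 2.91 in skimmed and 3.07 in whole powder. The same share over all miRNA pairs was not computed, so this count has no background. The nearer ones were miR-141 to miR-429, with a log2 ratio of 1.51 in the bovine library, against means of 1.03 in skimmed and 1.51 in whole powder, and miR-141 to miR-200a, with -1.77 in the bovine library, against -1.87 in skimmed and -1.55 in whole powder. Bovine reads with the seed of miR-200b, miR-200c and miR-429 numbered 14.7 for each read with the seed of miR-200a and miR-141, against 6.49 to 11.5 in the 6 goat libraries. The miR-200c and miR-141 cluster held 59.9% of the bovine family reads, above all goat libraries. The number of miR-141 reads per miR-200c read was 0.025 in the bovine library, below the 0.030 of skimmed A, the lowest goat library. Of these 10 pair ratios, 6 lay outside the goat range in the bovine library, against 81.9% of all 2016 pairs of miRNAs with a goat mean of at least 1000 CPM. Ratios with miR-429 do not belong to that background, as its goat mean was 796 CPM. Goat and bovine reads alike were counted under bovine names, and the sources used here do not say what became of goat reads with another sequence.

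Other miRNAs linked to epithelial and to other cell types were measured beside the family, and 0 members of any of these lists passed the threshold in edgeR or limma-voom. Before adjustment, edgeR's p was under 0.05 for 1 other epithelial, 2 stromal and endothelial, 2 leukocyte and 0 erythroid members, out of 8, 4, 7 and 1 tested, against 10.5% of all 209. DESeq2's Wald test on the 209 miRNAs called 1 of each of the first 3 lists, against 18.3% of the 71 miRNAs it adjusted. Higher in skimmed powder were miR-375 (adjusted p = 0.026) and miR-223 (0.034), and lower was miR-125b (0.022). Of the first list that fit adjusted only miR-375, miR-182 and miR-183, and of the second only miR-125b and miR-143. Of the third it adjusted only miR-146b, miR-342, miR-155 and miR-223. Without DESeq2's own filter and on all miRNAs with a count, the calls of miR-375 (0.056 and 0.054) and miR-223 (0.076 and 0.061) were lost and that of miR-125b held (0.048 and 0.029). Both of those fits called miR-150 lower, and the fit on all miRNAs also called miR-126-3p higher. These calls rest on low levels. The means of miR-150 were 0.040 CPM in skimmed and 13.6 CPM in whole powder. For miR-126-3p they were 21.3 CPM in skimmed and 0 CPM in whole powder, and edgeR's filter on low counts had left it out. The miRNAs miR-223, of myeloid cells, miR-150, of lymphoid cells, and miR-126-3p, of endothelial cells, were named after their values were seen. The list of other epithelial miRNAs has 13 names, of which 9 had a row and 8 were tested. It took 1.78% of reads in the bovine library, 3.29% to 3.74% in skimmed and 2.86% to 3.09% in whole libraries, so that skimmed powder lay above whole powder. Most of these reads were of miR-375, a single miRNA at 30579 ± 2844 CPM in skimmed and 25161 ± 1291 CPM in whole powder (SD, n = 3 each). The next members had lower means in skimmed powder, with 2666 CPM in skimmed and 2895 CPM in whole powder for miR-182 and 759 CPM in skimmed and 1264 CPM in whole powder for miR-183. Of the 8 tested members 5 had a log2 fold change above 0 and 3 below, with a median of 0.11, beside 0.03 over all miRNAs tested; miR-203, miR-34b, miR-34c and miR-449a were not analysed here.

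Leukocyte miRNAs had a row for 7 of 7 names, with 7 rows tested. They took 0.222% of reads in the bovine library, 2.68% to 2.86% in skimmed and 2.43% to 2.97% in whole libraries. By goat mean they were led by miR-146b, miR-342 and miR-155. In skimmed powder miR-223 (1610 CPM) stood above miR-155 (1453 CPM), and in whole powder below it (1174 and 1352 CPM). The bovine library had 1287 CPM of miR-342, 828 CPM of miR-146b and 7.75 CPM of miR-155. Stromal and endothelial miRNAs had a row for 6 of 9 names, with 4 tested. They took 0.934% in the bovine library, 0.331% to 0.402% in skimmed and 0.377% to 0.521% in whole libraries. By goat mean they were led by miR-125b, miR-143 and miR-100. The 4 tested members went both ways, with log2 fold changes of 0.52 for miR-143 and -0.65 for miR-125b (edgeR adjusted p = 0.12 each). Their median of -0.53 lay between miR-100 and miR-145, which had means of 24.1 and 21.2 CPM in skimmed and 35.8 and 33.9 CPM in whole powder and SEs of 1.25 and 2.48. Of the erythroid names only miR-486 had a row, with 0.176 CPM in the bovine library and 26.3 ± 11.5 CPM in skimmed and 47.1 ± 24.7 CPM in whole powder (SD, n = 3 each); miR-451, miR-144, miR-199a, miR-199b and miR-214 were not analysed here. The part of other cell types in the differences within the family was not tested.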

How the data were processed

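Small RNA was sequenced from milk powder vesicles as single-end reads of 50 bases, per the labels' protocols. The authors deposited a table per library of estimated counts per mature miRNA, with totals that differ between libraries, so they were treated as not normalized; aligner, counter, miRNA reference and build: not given in the sources used here. Depending on the library, 36.9% to 46.7% of non-zero values were whole (within 1e-06). CPM were computed here over all 364 miRNAs. For tests the estimated counts of the 6 goat libraries were rounded and fitted with edgeR 4.0.16 in R 4.3.3 (default filter on low counts, 209 miRNAs kept, all 5 members among them; TMM scaling, factors 0.928 to 1.067; quasi-likelihood test; Benjamini-Hochberg adjustment over all 209). The SE is the size of the log2 fold change over the square root of F. Ratios were compared with exact permutation tests in scipy 1.17.1, and DESeq2 1.42.0 and limma 3.58.1 served as alternatives. The fit was first tested on simulated data in which the changed miRNAs differed by 2-fold or more, which is more than the estimate of any member. How often it calls smaller differences was not tested.

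Groups follow the titles. No library was a copy of another of its powder: a chi-square of the counts of 2 such libraries, divided by its degrees of freedom, was 507 to 1670. No label gives a batch. Gene neighbours are from the RefSeq goat annotation ARS1.2, where all 5 genes were found by symbol. The family members and all lists were chosen with earlier results of these data known. The miRNAs named by rule are the 5 members, the 3 with the steadiest ratio to each, and the 3 most abundant of each list by goat mean. Outside that rule are miR-223, miR-150 and miR-126-3p, named after their values were seen, and miR-145, named for its place at a list median. Also outside it are let-7a-5p, left out in an alternative, and the list names not analysed. Leaving out each library, other scalings, filters and tools, and the letters A to C as a block were tried as alternatives.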

Additional observations from a re-analysis of the deposited data

How the results depend on the processing

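Over 17 alternatives the log2 fold change of miR-200c stayed above 0 (0.17 to 0.39, adjusted p 0.034 to 0.71) and those of miR-141 (-0.69 to -0.44, adjusted p 0.048 to 0.36) and miR-200a (-0.39 to -0.18, adjusted p 0.18 to 0.88) stayed below it. Upper-quartile scaling moved the median of all miRNAs by -0.15; relative to the median, miR-200c stood at 0.29 in both that and the TMM fit. The number of members called was 0 in all fits but DESeq2's Wald test, which called 2; it was 0 in the DESeq2 fits without its own filter and on all miRNAs with a count. The number of miRNAs called, 1 by edgeR, was 0 with library totals, with the size factors of DESeq2, with upper-quartile scaling and with let-7a-5p left out, 2 with no filter, 4 at a mean of at least 100 CPM, 13 with DESeq2, 12 without its own filter, 22 on all miRNAs with a count, 1 with limma-voom, and 0 to 1 with a library left out. It was 0 without skimmed B, skimmed C, whole A, whole B or whole C.

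The value of miR-200b was -0.055 with library totals, -0.11 with upper-quartile scaling, -0.025 with no filter, -0.0015 with DESeq2 on all miRNAs with a count and -0.014 without whole A (with each library left out, -0.014 to 0.077), and that of miR-429 was 0.12 without whole C. With each library left out, the cluster difference was 0.24 to 0.36, the seed difference 0.41 to 0.60, and those of miR-141 to miR-200c -1.05 to -0.72, of miR-200a to miR-200b -0.37 to -0.17 and of miR-429 to miR-200b -0.21 to 0.037. The cluster difference turned to -0.026 as a mean of log2 counts; weighting the members alike is how that alternative was built. The seed difference kept its sign in all 9 alternatives, most of which could not turn it. Where the powders do not overlap, as for the cluster, seed and miR-141 to miR-200c ratios, leaving out a library cannot change the sign. A block by letter leaves the difference itself unchanged. The seed difference was 0.50 without miR-429, which holds few of the family reads, and 0.49 as a mean of log2 counts.

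Whether the letters A to C pair skimmed with whole libraries cannot be settled from 3 libraries per powder. Deviations from the powder mean correlated at -0.09, 0.07 and 0.37 for the same letters A, B and C. Between different letters the correlations ran from -0.26 to 0.16, so the value for C was the highest and those for A and B lay within that range. With the letter as a replicate block 0 miRNAs and 0 members were called, miR-141 had a log2 fold change of -0.56 (adjusted p = 0.19), and the seed difference of 0.50 had an exact sign-flip permutation p of 0.25, the smallest that 3 pairs allow.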
